A study of Mus musculus with 20 samples.

Results

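*Ccl3*, *Ccl4*, *Ccl5*, *Ccl1*, *Xcl1* and *Cxcl10* encode 6 chemokine ligands that T cells can make. They were followed by gene symbol, whatever their values, as 6 of the 17101 genes in the RNA-Seq table, over 20 libraries. The libraries came from donor T cells sorted by flow cytometry from the spleens of mouse recipients at day +10 after allogeneic blood and marrow transplantation (BMT), in a parent-to-F1 model of acute graft-versus-host disease. Donors, aged 6 to 12 weeks, either carried floxed alleles of the DNA methyltransferase gene *Dnmt3a* together with a CD4-Cre transgene (labelled DNMT3a KO, CD4-Cre 2loxP) or were WT littermates without the deletion, and recipients, aged 8 to 12 weeks, had been irradiated in both arms. Because the *Cd4* promoter is active in thymocytes before the CD4+ and CD8+ lineages part, Cre of this kind acts in both subsets. Each group had 4 libraries: CD4+ and CD8+ cells of both genotypes, and CD4+CD8+ double-positive (DP) cells of KO donors alone, since DP cells of WT origin are not analysed here. Replicate numbers in the labels were taken as animals, 1 to 4 for KO cells and 2, 3, 5 and 6 for WT cells.

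Chemokines are small secreted proteins that draw leukocytes carrying the matching receptor along a gradient. *Ccl3*, *Ccl4* and *Ccl5* are inflammatory ligands that activated T cells, NK cells and myeloid cells make, *Ccl1* acts through CCR8, *Xcl1* acts through XCR1 on cross-presenting dendritic cells, and *Cxcl10* is an interferon-induced ligand of CXCR3. In graft-versus-host disease these molecules are known for recruiting effector T cells and myeloid cells to the target organs. In bulk RNA, fewer producing cells and less RNA per producing cell cannot be told apart.

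All values are normalized read counts, in which each library was divided by its DESeq2 size factor. Between 37547651 and 46966318 reads fell on genes per library. Between 13203 and 14677 genes had reads, except in the DP library of KO animal 3, where 11783 did. *Dnmt3a*, counted over the whole gene, ranged from 650.4 to 2007 in KO and from 3542 to 5171 in WT cells. *Cd4* and the CD8 chains *Cd8a* and *Cd8b1* followed the sorted subsets. Within CD8+ cells, however, *Cd4* was at 302 to 458 in KO and 9.88 to 79.6 in WT libraries. The KO CD4+ library of animal 1 also stood apart. Its 2 CD8 chains summed to 8287, against 384 to 1134 in the other CD4+ libraries. Markers of other cells were present. The neutrophil list (5 of 6 genes measured) summed to 1698 to 4191 per WT library and 0 to 7179 per KO library, and the dendritic cell list (5 of 6) to 4864 to 8965 and 780.3 to 3674. The NK cell list (3 of 4) summed to 139.7 to 757 per WT library and 244 to 3123 per KO library, with *Ncr1* at 0 in every CD4+ library, and the B cell list (5 of 5) to 55.7 to 260.0 and 646 to 2282, with *Ms4a1* and *Pax5* at 0 in every KO CD8+ and DP library.

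*Ccl5*, *Ccl3* and *Ccl4* lie close together on chromosome 11 (RefSeq positions, GRCm38.p6). *Ccl5* spans positions 83525778 to 83530518 on the minus strand, *Ccl3* spans 83647843 to 83649378 on the minus strand and *Ccl4* spans 83662584 to 83664683 on the plus strand, so that the starts of *Ccl3* and *Ccl4* face away from each other across 13206 bases. *Ccl1* lies on the same chromosome at 82176666 to 82179812 (minus strand), *Xcl1* on chromosome 1 at 164931644 to 164935522 (minus strand) and *Cxcl10* on chromosome 5 at 92346638 to 92348889 (minus strand). The 250 bases before the annotated start are shown, 5′ to 3′ on the gene's strand, for 4 of these genes, to set side by side the letters ahead of ligands that differed in subset and in spread between animals. *Ccl4* and *Ccl5* are named only. Capitals mark any match, on either strand, to letters that NF-kB (GGG, 5 bases of any kind, CC), AP-1 (TGANTCA), interferon-activated factors (GAAA, 2 bases of any kind, GAAA) or NFAT (the core GGAAA) are known to bind.
Ccl3 (chr11:83649379-83649628): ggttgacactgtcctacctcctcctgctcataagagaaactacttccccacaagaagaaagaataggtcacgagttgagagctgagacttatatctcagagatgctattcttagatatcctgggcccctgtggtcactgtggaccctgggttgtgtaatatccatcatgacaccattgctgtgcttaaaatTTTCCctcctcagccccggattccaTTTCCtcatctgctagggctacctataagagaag
Ccl1 (chr11:82179813-82180062): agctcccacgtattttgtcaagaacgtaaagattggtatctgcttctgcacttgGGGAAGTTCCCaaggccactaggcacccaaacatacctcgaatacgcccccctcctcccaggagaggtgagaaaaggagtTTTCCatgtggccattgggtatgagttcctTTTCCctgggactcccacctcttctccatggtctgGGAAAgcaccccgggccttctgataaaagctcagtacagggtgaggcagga
Xcl1 (chr1:164935523-164935772): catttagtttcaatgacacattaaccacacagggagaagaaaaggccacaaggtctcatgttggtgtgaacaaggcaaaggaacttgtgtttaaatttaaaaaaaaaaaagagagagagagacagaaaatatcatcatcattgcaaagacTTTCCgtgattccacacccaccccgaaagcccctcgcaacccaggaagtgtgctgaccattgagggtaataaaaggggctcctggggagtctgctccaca
Cxcl10 (chr5:92348890-92349139): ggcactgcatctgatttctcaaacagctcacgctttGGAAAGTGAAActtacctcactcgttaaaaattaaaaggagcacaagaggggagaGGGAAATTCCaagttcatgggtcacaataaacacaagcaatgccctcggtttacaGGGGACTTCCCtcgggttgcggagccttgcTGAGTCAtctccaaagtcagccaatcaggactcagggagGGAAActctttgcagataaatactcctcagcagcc
The stretch before *Cxcl10* held matches to all 4 sets of letters. The interferon match lay at -213 to -204 from the start, the NF-kB matches at -159 to -150 and between -104 and -94, and the AP-1 match at -74 to -68. GGAAA was found at 3 places there, inside the first NF-kB match, overlapping the interferon match and alone. *Ccl1* had an NF-kB match between -196 and -186 and 3 matches to the NFAT core. *Ccl3* had 2 and *Xcl1* had 1 match to the NFAT core, and the other letters were not in these windows. Among 32851 RefSeq windows of the same length, 45.8% held the NF-kB letters, 6.75% the AP-1 letters, 2.98% the interferon letters and 55.6% the NFAT core. The number of CpG sites was 2 for *Ccl3*, 3 for *Xcl1* and 5 each for *Ccl1* and *Cxcl10*, against a median of 6 over all windows.

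Per kilobase of RefSeq mRNA, *Ccl5* had the highest mean level of the 6 ligands in each of the 5 groups. In WT CD8+ cells its level was 73489 ± 5027 (SD, n = 4) normalized counts per kb, followed by *Ccl3* at 14214 ± 1698, *Ccl4* at 11526 ± 965, *Xcl1* at 2478 ± 177, *Ccl1* at 423 ± 212 and *Cxcl10* at 83.0 ± 34.3. In WT CD4+ cells the levels lay closer together. *Ccl5* was at 16894 ± 4349 per kb, *Ccl3* at 5831 ± 1362, *Ccl4* at 5495 ± 1533, *Ccl1* at 4711 ± 1271, *Xcl1* at 967 ± 258 and *Cxcl10* at 351 ± 48.7. *Ccl5* thus made up 49.3% of the summed level per kb of the 6 ligands in WT CD4+ cells and 71.9% in WT CD8+ cells. Among KO cells its share was 71.9% in CD4+, 88.1% in CD8+ and 76.9% in DP cells. The plot of normalized counts by library shows the 6 ligands side by side.

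**Figure D1:**
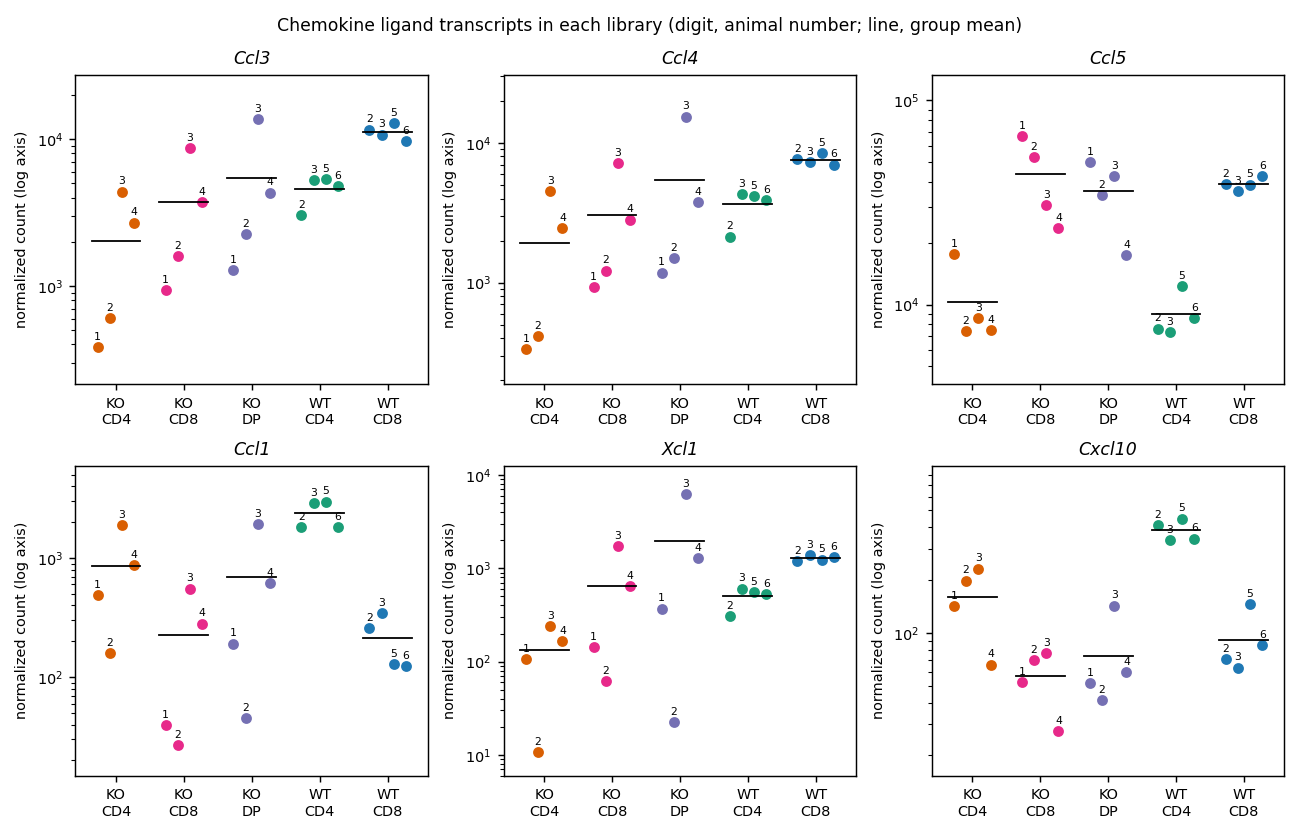
Normalized count of each ligand (log axis) in the 20 libraries, by group. Each point is a library with its animal number and each line is the mean of 4 libraries. KO animal 3 is the highest and KO animals 1 and 2 are the lowest in all 3 KO subsets for *Ccl3*, *Ccl4*, *Ccl1* and *Xcl1*, whereas KO animal 1 is the highest for *Ccl5*.

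*Ccl3* and *Ccl4* encode macrophage inflammatory proteins 1 alpha and 1 beta. The *Ccl3* count was 385, 608, 4383 and 2699 in KO CD4+ cells (animals 1 to 4) and 3029.8, 5235, 5349 and 4812 in WT CD4+ cells (animals 2, 3, 5 and 6). In CD8+ cells it was 941, 1599.6, 8659.8 and 3744 in KO and 11607, 10709, 12877 and 9723 in WT libraries, and in KO DP cells it was 1283, 2245, 13754 and 4317. All 4 KO CD8+ libraries lay below the 4 WT CD8+ libraries, whereas in CD4+ cells the library of KO animal 3 lay within the WT range. The order of the group means was WT CD8+, KO DP, WT CD4+, KO CD8+ and KO CD4+. The ranges of each pair of neighbours in this order overlapped. By the median, KO DP cells (3281) lay below WT CD4+ cells (5023), and so they did by the mean on the log2 scale (11.82 and 12.13).

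*Ccl4* had the same shape. Its count was 336, 415, 4528 and 2465 in KO CD4+ and 2131, 4320.3, 4151 and 3905 in WT CD4+ cells. In CD8+ cells it was 929, 1219.8, 7132 and 2828 in KO and 7644, 7321, 8474 and 6988 in WT libraries, and in KO DP cells it was 1181, 1489, 15455 and 3756. KO animal 3 exceeded the whole WT range in CD4+ cells and entered it in CD8+ cells, and the other KO libraries lay below the WT libraries, apart from the CD4+ library of animal 4. The ratio of the *Ccl3* to the *Ccl4* count stayed between 0.890 and 1.52 over the 20 libraries (median 1.26), while *Ccl3* itself varied 35.7-fold and *Ccl4* 46.1-fold from the lowest to the highest library.

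*Ccl5*, also known as RANTES and made by memory and effector T cells, followed another order. Its count was 17752, 7410.4, 8557 and 7538 in KO CD4+ and 7643, 7327, 12358 and 8622 in WT CD4+ cells. It was 66968, 52983, 30674 and 23741 in KO CD8+, 50018, 34367, 42464 and 17415 in KO DP, and 38947, 36123, 38693 and 42622 in WT CD8+ cells. KO and WT values interleaved in both subsets. Each CD8+ and DP value lay above each CD4+ value, except that DP cells of animal 4 fell just short of CD4+ cells of animal 1. The highest CD4+ value came from the library with 8287 counts of the CD8 chains, and the part of that signal in the *Ccl5* count was not tested.

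*Ccl1*, a ligand that activated CD4+ T cells make, was the member with the strongest bias to CD4+ cells. Its count was 489, 160.1, 1902 and 873 in KO CD4+ and 1831, 2896, 2973 and 1818 in WT CD4+ cells. It was 39.6, 26.8, 555 and 282 in KO CD8+, 258, 344, 129 and 123 in WT CD8+ and 191, 45.1, 1938 and 619 in KO DP cells. In CD4+ cells KO animal 3 alone reached the WT range, and in CD8+ cells KO values lay on both sides of the WT values.

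*Xcl1* encodes lymphotactin. Its count was 107, 10.8, 242 and 167 in KO CD4+ and 305, 605, 560.4 and 532 in WT CD4+ cells, without overlap. In CD8+ cells it was 143, 61.8, 1727 and 641 in KO and 1182, 1393, 1241 and 1317 in WT libraries, and in KO DP cells it was 370.1, 22.6, 6256 and 1283. Of these KO CD8+ values, 3 lay below and 1 above all WT CD8+ values, and DP cells of animal 3 had the highest *Xcl1* count of the 20 libraries.

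*Cxcl10*, the member with the lowest mean level per kb in each group, was counted at 142, 199, 233 and 65.9 in KO CD4+ and 412, 339, 449.7 and 345 in WT CD4+ cells, without overlap. In KO CD8+ cells it was counted at 52.5, 76.3 and 27.5 in animals 1, 3 and 4, with animal 2 between the first 2 of these. It was counted at 70.7, 63.3, 146 and 85.3 in WT CD8+ and 51.8, 41.2, 143 and 59.4 in KO DP cells. The WT CD4+ values stood above the range of every other group.

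To ask whether loss of *Dnmt3a* changed these transcripts, KO and WT cells were compared within each subset with limma. In CD4+ cells 3 of the 6 ligands were lower in KO cells and none was higher. *Xcl1* fell by 2.52 on the log2 scale (SE 0.78, adjusted P = 0.0475), *Ccl1* fell by 1.94 (SE 0.59, adjusted P = 0.0459) and *Cxcl10* fell by 1.40 (SE 0.35, adjusted P = 0.0233). *Ccl3* and *Ccl4* did not pass, with log2 fold changes of -1.80 (SE 0.65, adjusted P = 0.0777) and -1.64 (SE 0.73, adjusted P = 0.133). The estimate for *Ccl5* was 0.13 (SE 0.27, adjusted P = 0.749). Of the 12391 genes tested, 9.77% were called lower in KO cells and 18.4% were called in either direction. The median log2 fold change was -1.72 over the 6 ligands and -0.05 over all genes tested. The groups did not overlap for 2 ligands, *Xcl1* and *Cxcl10*, against 25.6% of all genes, and both reached the smallest exact permutation P that 4 against 4 libraries allow (0.0286, 2-sided). The 3 calls were narrow. With edgeR and with DESeq2 on the recovered reads *Cxcl10* alone of the 6 passed, leaving out any 1 WT CD4+ library or KO animal 1 left 0 of the 6 past the threshold, and leaving out KO animal 3 raised the number to 5, with *Ccl3* at -2.39 (adjusted P = 0.0160) and *Ccl4* at -2.32 (adjusted P = 0.0244).

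In CD8+ cells 2 of the 6 ligands were lower in KO cells and none was higher. *Ccl3* fell by 2.08 on the log2 scale (SE 0.56, adjusted P = 0.0257), a 4.22-fold difference, and *Ccl4* fell by 1.79 (SE 0.53, adjusted P = 0.0354). *Xcl1* was at -2.02 with a wider error (SE 0.85, adjusted P = 0.110). *Ccl1* was at -0.76 (SE 0.90, adjusted P = 0.557), *Cxcl10* at -0.70 (SE 0.40, adjusted P = 0.219) and *Ccl5* at 0.04 (SE 0.28, adjusted P = 0.933). Of the 12383 genes tested, 12.5% were called lower in KO cells and 25.2% in either direction. The median log2 fold change was -1.27 over the ligands and -0.04 over all genes. *Ccl3* was the single ligand whose groups did not overlap, against 30.6% of all genes (exact permutation P = 0.0286, 2-sided). Both calls were lost with edgeR (*Ccl3* at -1.58, adjusted P = 0.0693; *Ccl4* at -1.32, adjusted P = 0.104) and whenever KO animal 2 or any 1 WT CD8+ library was left out, where 0 of the 6 passed. Without KO animal 3, 3 of the 6 passed, *Xcl1* among them at -2.83 (adjusted P = 0.0110).

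**Figure D2:**
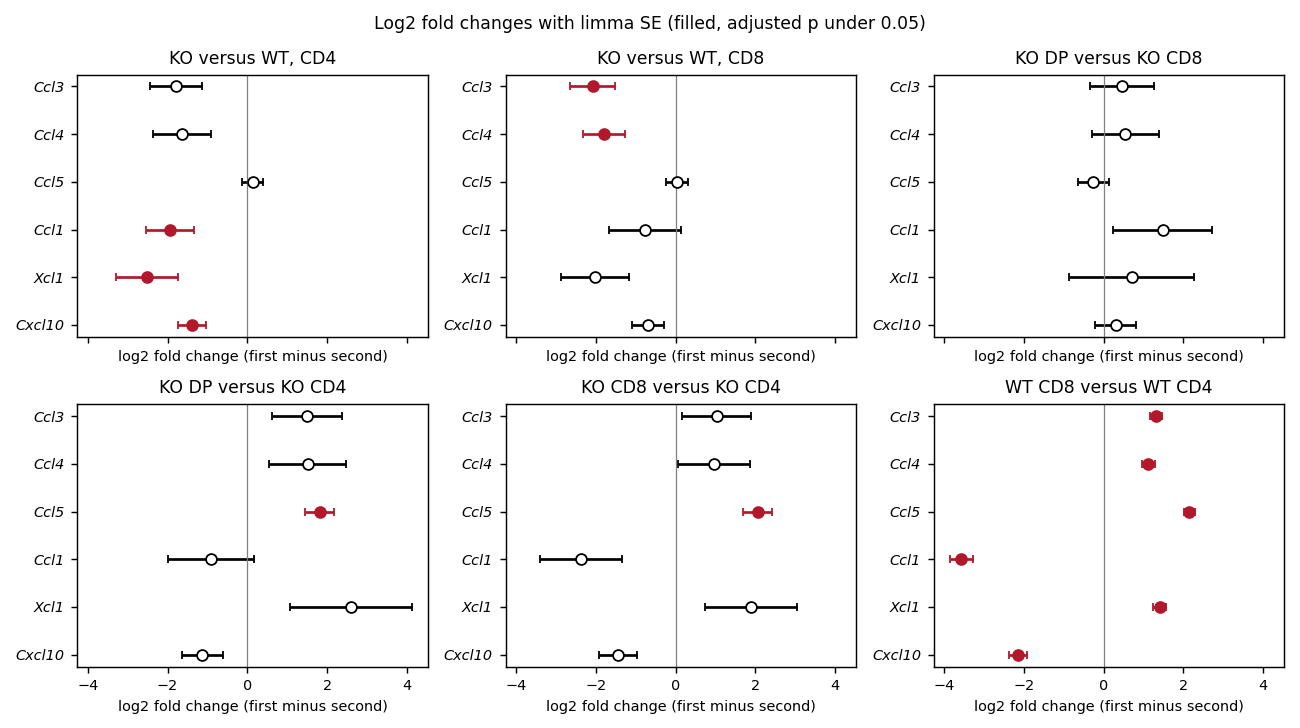
Log2 fold change (x axis, first group minus second) of the 6 ligands in 6 comparisons, with bars of 1 limma SE on either side. Filled red points had an adjusted P under 0.05. For each ligand the bar is shortest in the comparison of WT CD8+ with WT CD4+ cells, where all 6 points are filled, and *Ccl5* lies near 0 in both comparisons of KO with WT cells.

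The subsets differed clearly among cells of WT donors. Between WT CD8+ and WT CD4+ cells, without regard to the animal, all 6 ligands passed the test, against 44.5% of the 12559 genes tested. For all 6 the groups did not overlap, against 41.8% of genes. *Ccl5* was higher in CD8+ cells by 2.15 on the log2 scale (SE 0.13, adjusted P = 2.34e-08), *Xcl1* by 1.40 (SE 0.17, adjusted P = 1.98e-05), *Ccl3* by 1.31 (SE 0.15, adjusted P = 9.79e-06) and *Ccl4* by 1.12 (SE 0.17, adjusted P = 0.000147). In the other direction, *Ccl1* was 11.9-fold lower in CD8+ cells (log2 fold change -3.57, SE 0.29, adjusted P = 5.04e-07) and *Cxcl10* was 4.40-fold lower (-2.14, SE 0.23, adjusted P = 6.85e-06). In fits that pooled the spread of the KO libraries with that of the WT libraries, *Ccl3*, *Ccl4* and *Xcl1* no longer passed, leaving 3 of 6. For each ligand, 4 of 4 within-animal differences had the same direction. With the animal as a block in limma, the SE ranged from 0.09 for *Ccl5* to 0.21 for *Ccl1*. The adjusted P in that fit ranged from 1.12e-09 for *Ccl5* to 1.05e-05 for *Ccl4*.

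Among cells of KO donors the same contrast was blurred by the differences between animals. Without regard to the animal, *Ccl5* alone passed (log2 fold change 2.06, SE 0.36, adjusted P = 0.0140), 1 of 6 against 4.22% of the 12189 genes, and *Ccl5* was also the 1 ligand without overlap, against 10.1% of genes. Libraries with equal numbers were taken to come from the same animal. With the animal as a block all 6 ligands passed, against 18.9% of genes. In that fit *Ccl3* was higher in CD8+ cells by 1.03 (SE 0.14, adjusted P = 0.000907), *Ccl4* by 0.97 (SE 0.20, adjusted P = 0.00923), *Ccl5* by 2.06 (SE 0.16, adjusted P = 5.66e-05) and *Xcl1* by 1.90 (SE 0.35, adjusted P = 0.00560). *Ccl1* was at -2.38 (SE 0.30, adjusted P = 0.000665) and *Cxcl10* at -1.44 (SE 0.25, adjusted P = 0.00381). For each of the 6 ligands, 4 of 4 KO animals differed in the direction seen in WT animals. The number stayed at 6, against 11.9% of genes, when animal 3 was left out of the blocked fit. Without the block and without animal 3 it was 0.

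**Figure D3:**
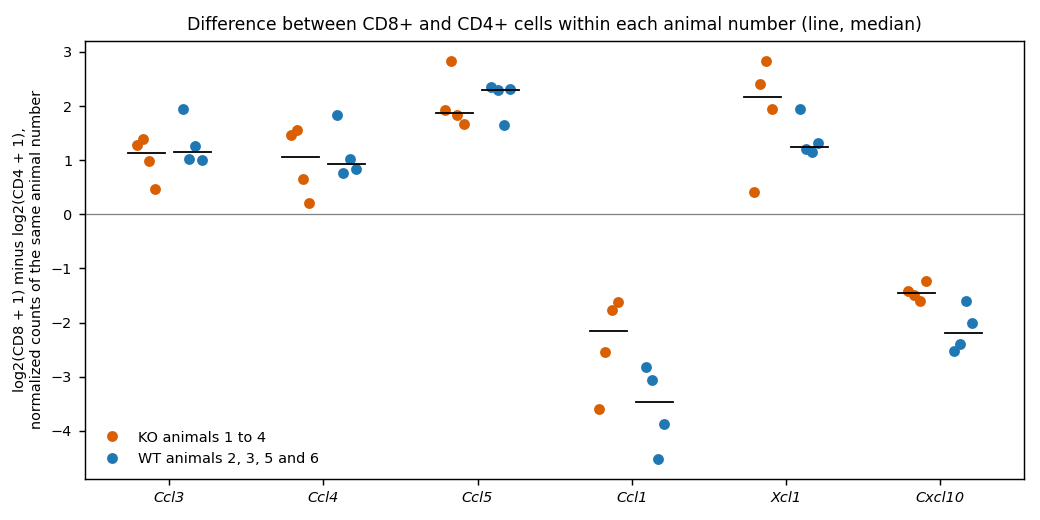
Difference between CD8+ and CD4+ cells of the same animal number on the log2(normalized count + 1) scale (y axis) for the 6 ligands, with KO animals in orange, WT animals in blue and lines at the medians. All 8 points lie above 0 for *Ccl3*, *Ccl4*, *Ccl5* and *Xcl1* and below 0 for *Ccl1* and *Cxcl10*.

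Whether the difference between the subsets depended on the genotype was tested as an interaction over 16 libraries. None of the 6 ligands passed (limma, adjusted P = 1.000 for each; 0 had an unadjusted P under 0.05, and 0 passed with edgeR or DESeq2), against 0.0161% of 12446 genes. The estimates ranged from -0.28 (SE 0.97) for *Ccl3* to 1.19 (SE 1.18) for *Ccl1*, and the narrowest was -0.09 (SE 0.43) for *Ccl5*. With the animal as a block the SE for *Ccl1* was 0.44, for *Cxcl10* 0.28 and for *Ccl3* 0.22, and the adjusted P values lay between 0.220 and 0.907. The changes in CD4+ cells and in CD8+ cells were therefore not shown to differ for any ligand, although different ligands passed in each.

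KO DP cells, which carry both coreceptors, were compared with each KO single-positive subset. Against KO CD8+ cells 0 of 6 ligands passed (limma; 0 had an unadjusted P under 0.05, and 0 passed with edgeR or DESeq2), and 0.00823% of 12153 genes did. No ligand separated these groups, against 2.70% of genes. The estimates were 0.45 (SE 0.80) for *Ccl3*, 0.54 (SE 0.84) for *Ccl4*, -0.26 (SE 0.39) for *Ccl5*, 1.48 (SE 1.24) for *Ccl1*, 0.70 (SE 1.57) for *Xcl1* and 0.30 (SE 0.52) for *Cxcl10*. Within animals, *Ccl1* was higher in DP than in CD8+ cells in 4 of 4 animals, by 0.73 to 2.24 on the log2 scale, and so were *Ccl3*, by 0.21 to 0.67, and *Ccl4*, by 0.29 to 1.12. *Xcl1* was higher in 3 of 4 animals, *Ccl5* was lower in 3 of 4, and *Cxcl10* was higher in 2 and lower in 2. With the animal as a block 0 of 6 ligands passed (adjusted P = 0.405 to 0.702), against 0.00823% of genes. In a fit added after the data were seen, with the block and without animal 3, 4 of 6 passed, against 7.45% of genes, with *Ccl3* at 0.38 (adjusted P = 0.00273), *Ccl4* at 0.35 (adjusted P = 0.00675), *Ccl1* at 1.37 (adjusted P = 0.00501) and *Ccl5* at -0.50 (adjusted P = 1.36e-06). Animal 3, left out there, was the 1 animal in which *Ccl5* was higher in DP cells, by 0.47.

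Against KO CD4+ cells, *Ccl5* was higher in DP cells by 1.81 (SE 0.36, adjusted P = 0.0362), 1 of 6 ligands against 1.95% of 12175 genes. No ligand was free of overlap, against 11.2% of genes. With the animal as a block 4 of 6 passed, against 7.06% of genes, all of them higher in DP cells. These were *Ccl5* (SE 0.20, adjusted P = 0.00497), *Ccl3* at 1.49 (SE 0.20, adjusted P = 0.00964), *Ccl4* at 1.51 (SE 0.22, adjusted P = 0.0114) and *Xcl1* at 2.60 (SE 0.56, adjusted P = 0.0391). *Cxcl10* was lower in DP than in CD4+ cells in 4 of 4 animals without passing (-1.13, adjusted P = 0.138 with the block), and *Ccl1* was lower in 3 of 4 (-0.91, adjusted P = 0.128 with the block). The call on *Ccl5* without the block was lost in 6 of the 8 fits that left out 1 library and without animal 3 (1.64, adjusted P = 0.178), and with the block and without animal 3, 5 of the 6 ligands passed, against 14.3% of genes.

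The KO animals differed from each other more than the WT animals did. On the log2 scale the SD of *Ccl3* was 1.41 to 1.68 in the 3 KO subsets, against 0.38 in WT CD4+ and 0.17 in WT CD8+ cells. The SD of *Xcl1* was 1.96, 2.14 and 3.40 in the 3 KO subsets and 0.45 and 0.10 in WT CD4+ and CD8+ cells. The median SD over 12411 genes was 0.25 to 0.40 in the KO groups and 0.10 to 0.13 in the WT groups, so that the KO libraries were more spread for genes in general. *Ccl5* stood lower, with an SD of 0.60 to 0.69 in the KO subsets and 0.34 and 0.10 in WT CD4+ and CD8+ cells. So did *Cxcl10*, with 0.65 to 0.8 in the KO subsets and 0.2 and 0.53 in WT CD4+ and CD8+ cells.

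The order of the KO animals repeated itself from subset to subset. From low to high it was 1, 2, 4 and 3 for *Ccl3* and *Ccl4* and 2, 1, 4 and 3 for *Ccl1* and *Xcl1*, in CD4+, CD8+ and DP cells alike. For *Ccl5* animal 1 was the highest in all 3 subsets, and animal 4 was the lowest in CD8+ and DP cells. For *Cxcl10* animal 3 was the highest in all 3 subsets. After group means were removed, r over the 20 libraries was 0.99 between *Ccl3* and *Ccl4* and 0.95 between *Ccl1* and *Xcl1*, and it was 0.72 to 0.83 between these pairs. *Ccl5* had r of -0.48 to 0.24 with the other 5 ligands. These libraries share animals, so the 20 points are not independent.

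Markers of several other cells moved with the same animals. The neutrophil list is given in full first. Their sum was 62.1, 0, 4049.7 and 409 in KO CD4+ libraries (animals 1 to 4), 149.9, 12.4, 2622 and 375 in KO CD8+ libraries and 129, 2.94, 7179 and 466 in KO DP libraries. Animal 3 lay within or above the WT range of 1698 to 4191, and the other 3 KO animals lay below it. In deviations from group means, this sum had r of 0.93 with *Xcl1*, 0.89 with *Ccl1*, 0.82 with *Ccl4*, 0.75 with *Ccl3*, 0.22 with *Cxcl10* and -0.13 with *Ccl5* over the 20 libraries. The dendritic cell sum had r of 0.88 with *Ccl1*, 0.83 with *Xcl1*, 0.71 with *Ccl4*, 0.70 with *Ccl3*, 0.03 with *Cxcl10* and -0.53 with *Ccl5*. Of the measured markers, 1 of 5 neutrophil and 5 of 5 dendritic cell genes, *Xcr1* among the latter, were called lower in KO CD4+ cells, and 1 of 5 and 4 of 5 in KO CD8+ cells. Over all genes tested, 9.77% and 12.5% were called lower. In animal 2, 5 of the 5 measured neutrophil genes were at 0 in CD4+ cells, 3 of 5 in CD8+ cells and 4 of 5 in DP cells. The erythroid and platelet sum had r of 0.94 with *Xcl1*, 0.87 with *Ccl1*, 0.82 with *Ccl4*, 0.76 with *Ccl3*, 0.46 with *Cxcl10* and -0.12 with *Ccl5*, and the sum of the CD4 subset markers had r of 0.84 with *Ccl1*, 0.80 with *Xcl1*, 0.71 with *Ccl4* and 0.69 with *Ccl3*. *Ccl5* moved instead with the monocyte and macrophage sum (r = 0.68), the CD8 chains (0.61) and the B cell sum (0.51). *Cxcl10* had r of -0.63 with the NK cell sum and -0.52 with the regulatory T cell sum. Such r values were not limited to other cells. The alpha beta T cell sum had r of 0.71 with *Xcl1*, 0.59 with *Ccl4*, 0.58 with *Ccl1*, 0.50 with *Ccl3*, 0.48 with *Cxcl10* and 0.40 with *Ccl5*. That sum was 250882 in the DP library of animal 3 and at most 179952 in the other libraries. The same library had the highest neutrophil sum and the highest *Xcl1*, *Ccl3* and *Ccl4* counts, and the fewest genes with reads. Its part in these r values was not tested. The part of other cells in the falls of *Ccl3*, *Ccl4*, *Ccl1*, *Xcl1* and *Cxcl10* was not tested. Between WT CD4+ and WT CD8+ cells, where all 6 ligands differed, the neutrophil sums overlapped (2209 to 3432 and 1698 to 4191). The NK cell sums (139.7 to 206 and 429 to 757) and the B cell sums (55.7 to 89.0 and 165 to 260.0) did not overlap. The part of any of these cells in the difference between the WT subsets was not tested.

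**Figure D4:**
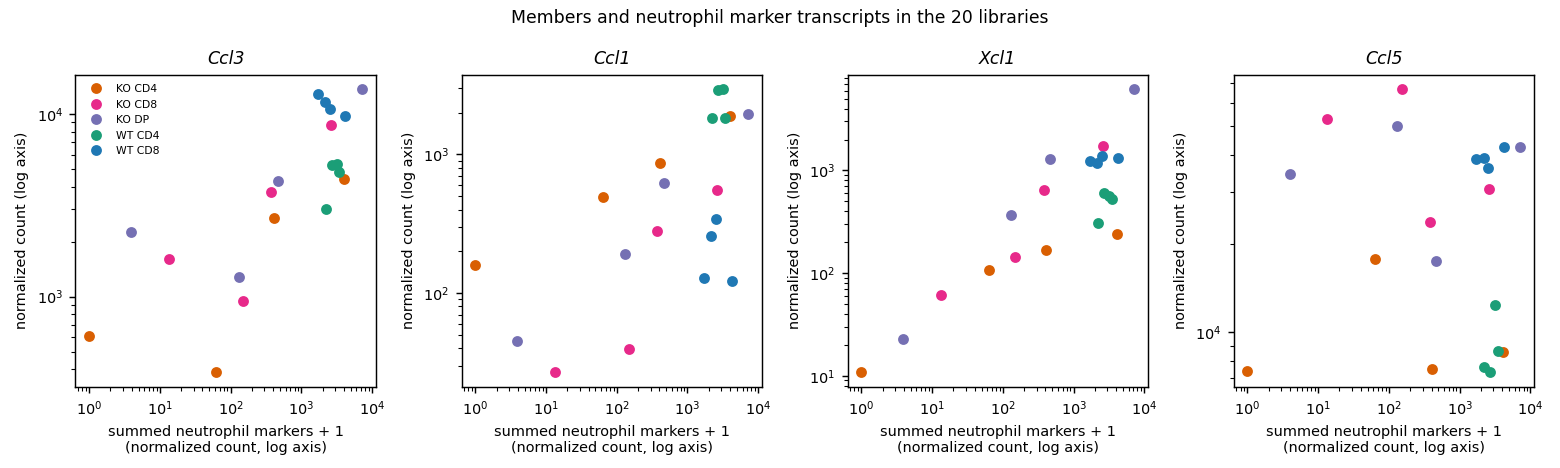
Normalized count of 4 ligands (y axes, log) against the summed normalized count of neutrophil markers plus 1 (x axes, log) in the 20 libraries, colored by group. KO libraries spread over the x axis from 0 to 7179 before the 1 is added, and *Ccl3*, *Ccl1* and *Xcl1* are highest in the KO library with the highest sum within each KO subset, whereas *Ccl5* is not.

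Some receptors for these ligands were read in the same T cells. *Xcr1*, the receptor of *Xcl1*, lay between 132 and 266 in KO CD4+ and between 400.0 and 445 in WT CD4+ libraries, and between 147 and 239 in KO CD8+ and between 593 and 680.3 in WT CD8+ libraries. It fell by 0.97 in CD4+ cells (SE 0.23, adjusted P = 0.0193) and by 1.61 in CD8+ cells (SE 0.17, adjusted P = 0.000713). *Xcr1* is known as a marker of cross-presenting dendritic cells and is itself on the dendritic cell list, which covers dendritic cells in general. Of the measured genes of that list, 5 of 5 were called lower in KO CD4+ and 4 of 5 in KO CD8+ cells, *Xcr1* among them. The part of dendritic cells in this value was not tested.

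*Ccr1*, a receptor of *Ccl3* and *Ccl5*, and *Ccr8*, the receptor of *Ccl1*, did not pass in either subset. The log2 fold changes between KO and WT cells were -0.92 and -0.78 for *Ccr1* in CD4+ and CD8+ cells and -0.23 and -0.68 for *Ccr8*. *Ccr3* had -0.25 and 0.21. Thus 1 of the 4 receptors tested, *Xcr1*, was lower in KO CD4+ and in KO CD8+ cells, and none was higher (medians -0.58 and -0.73, against -0.05 and -0.04 over all genes). Of all genes, 9.77% and 12.5% were called lower. Between WT CD8+ and CD4+ cells, *Ccr8* followed *Ccl1* and was lower in CD8+ cells by 1.78 (SE 0.17, adjusted P = 2.34e-06), *Ccr1* was lower by 1.28 (adjusted P = 0.00217), and *Xcr1* was higher by 0.53 (adjusted P = 0.000303). *Ackr2*, a scavenging receptor, lay between 0 and 15.3 and was not tested, and *Cxcr3* was not analysed here.

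Of 32 other chemokine ligands, 24 had a row and 11 could be tested in CD4+ cells. 3 of these 11 were lower in KO cells and none was higher, against 9.77% of all genes called lower. The same 3 of 10 were lower in CD8+ cells, against 12.5% of all genes. *Cxcl9*, like *Cxcl10* an interferon-induced ligand of CXCR3, was at 48.2 ± 40.5 in KO CD4+ and 252 ± 103 in WT CD4+ cells (SD, n = 4; fell by 2.58, adjusted P = 0.0101) and fell by 2.77 in CD8+ cells (adjusted P = 0.0104). The other two, *Ppbp* and *Pf4*, are platelet chemokines. *Ppbp* was at 1.67 ± 1.97 in KO CD4+ and 37.9 ± 23.4 in WT CD4+ cells, and *Pf4* at 4.06 ± 8.12 and 21.2 ± 7.41. Summed erythroid and platelet markers (3 of 6 measured) lay between 16.7 and 194 in KO CD4+ and CD8+ libraries and between 170.5 and 581 in the WT libraries, and their part was not tested. *Ccl6*, which lies between *Ccl5* and *Ccl3*, had mean counts of 95.4 (WT) and 137 (KO) in CD4+ cells, 187 (WT) and 256 (KO) in CD8+ cells, and 248 in DP cells. It did not pass between KO and WT cells in either subset (log2 fold changes 0.39 and 0.37).

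Genes induced by the T cell receptor, which include well-known companions of *Ccl3*, *Ccl4* and *Xcl1*, went down more often than up. In KO CD4+ cells 7 of 20 were lower and 1 was higher, with a median log2 fold change of -0.64 against -0.05 over all genes, and in KO CD8+ cells 8 of 19 were lower and 1 was higher, with a median of -0.91 against -0.04. Over all genes tested, 9.77% were called lower and 18.4% in either direction in CD4+ cells, and 12.5% and 25.2% in CD8+ cells. *Nr4a2*, an orphan nuclear receptor, fell by 1.93 in CD4+ (adjusted P = 0.0410) and by 2.29 in CD8+ cells (adjusted P = 0.0163). *Nr4a3* fell by 1.35 in CD4+ cells and fell by 1.52 in CD8+ cells, *Csf2*, which encodes GM-CSF, fell by 1.32 in CD4+ cells, and *Ifng* fell by 1.79 in CD8+ cells, from 11162 ± 693 to 3458 ± 1509. Against this direction, the activation marker *Cd69* was higher in KO CD4+ cells by 0.83 (adjusted P = 0.0305) and *Crtam* higher in KO CD8+ cells by 0.64 (adjusted P = 0.0172).

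Granule and effector genes, with which *Ccl5* is often coexpressed, were split. *Ifng* is on this list too. In KO CD4+ cells 3 of 13 were higher and 1 was lower. The median was 0.03, against -0.05 over all genes, of which 18.4% were called in either direction. The granzymes *Gzma* and *Gzmb* rose by 2.80 (adjusted P = 0.0152) and 1.32 (adjusted P = 0.0112), the perforin gene *Prf1* rose by 0.96, and *Ifng* fell by 0.95. The spread of *Gzma* was wide, at 13964 ± 15393 in KO and 1259 ± 107 in WT CD4+ cells (SD, n = 4). The KO CD4+ group includes the library of animal 1, with 8287 counts of the CD8 chains. Its part in these rises was not tested. In KO CD8+ cells 1 of 14 was higher, *Gzma* by 1.93 (87422 ± 95251 in KO and 16406 ± 3659.5 in WT cells), and 4 were lower. The median was -0.33, against -0.04 over all genes, of which 25.2% were called in either direction. Among the lower genes were *Ifng* at -1.79, the cystatin gene *Cst7* at -1.08 and the cathepsin gene *Ctsw* at -0.56. *Ccl5* passed in neither subset.

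Interferon response genes, the group to which *Cxcl10* belongs, were lower in 9 of 19 cases in KO CD4+ and in 8 of 19 in KO CD8+ cells, and none was higher. *Cxcl9*, already counted among the other chemokine ligands, is on this list too and had its largest fall in both subsets. The medians were -0.34 and -0.30, against -0.05 and -0.04 over all genes. Of all genes, 9.77% were called lower in KO CD4+ and 12.5% in KO CD8+ cells. *Mx1*, an antiviral GTPase, fell by 1.31 in CD4+ (adjusted P = 0.00659) and by 1.23 in CD8+ cells (adjusted P = 0.00483). *Rsad2* fell by 1.22 in CD4+ cells and *Iigp1* by 0.99 in CD8+ cells.

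Among 16 transcription factors tied to these ligands, *Fos* and *Jun*, the AP-1 subunits, had the largest falls. *Fos* fell by 3.01 in CD4+ cells (adjusted P = 0.00182) and went from 2319.7 ± 692 in WT to 301 ± 124 in KO CD8+ cells (adjusted P = 0.000886). *Jun* fell by 2.72 in CD4+ and fell by 2.97 in CD8+ cells. In all, 4 were lower and 2 higher in KO CD4+ cells and 5 were lower and 3 higher in KO CD8+ cells (medians -0.08 and -0.24). Over all genes the medians were -0.05 and -0.04, and 18.4% and 25.2% were called in either direction. *Klf13*, known as a late activator of the *Ccl5* gene, rose by 0.91 in CD4+ (adjusted P = 0.00553) and by 1.08 in CD8+ cells (adjusted P = 0.00335), *Klf2* rose by 0.90 in CD4+ cells, and *Nfatc2* and *Nfkb1* rose by 0.32 and 0.30 in CD8+ cells. *Bhlhe40* fell by 0.41 in CD4+ cells, and *Eomes*, a T-box factor of cytotoxic cells, fell by 1.19 in CD8+ cells.

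**Figure D5:**
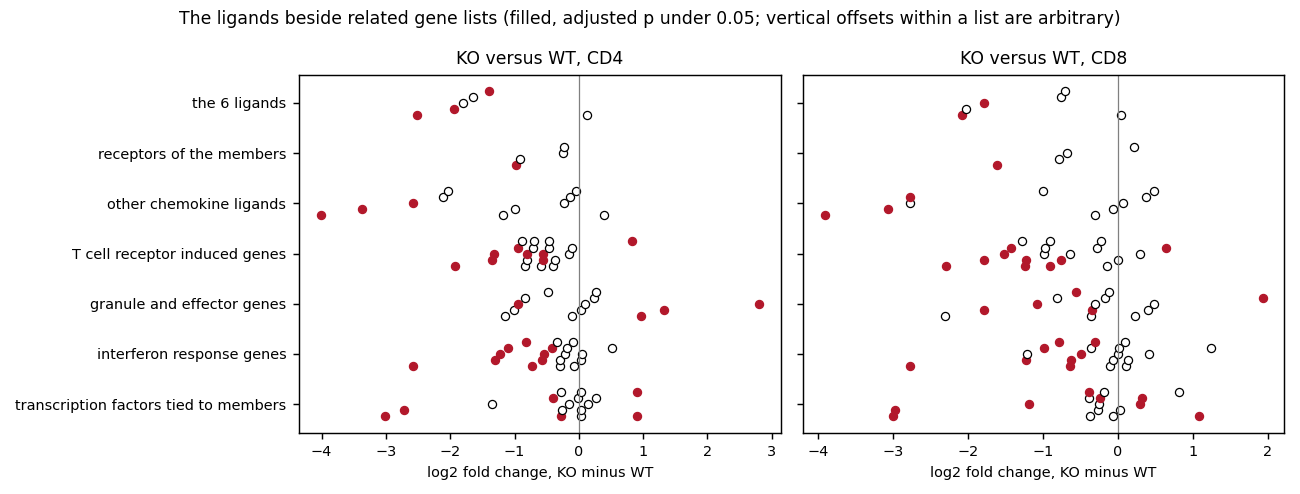
Log2 fold change, KO minus WT (x axis), of the 6 ligands and of the genes tested in 6 related lists, in CD4+ (left) and CD8+ cells (right). Filled points had an adjusted P under 0.05. The T cell receptor induced genes lie mostly below 0 (medians -0.64 and -0.91), and the granule genes lie on both sides.

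Among 10709 genes with a mean count of at least 50, those most alike each ligand over the 20 libraries were ranked by Pearson r on the log2 scale, as a description over points that share animals. *Ccl3* was closest to *Ccl4* (r = 0.988), then *Sema7a* (0.970) and *Cst7* (0.962). *Ccl4* was closest to *Ccl3*, then *Cst7* (0.969) and *Sema7a* (0.955). For *Ccl5* the closest were *Klra7* (0.943), *Cd8b1* (0.933) and *Itgax* (0.933), for *Ccl1* they were *Cd82* (0.942), *Fam132a* (0.938) and *Pdcd1lg2* (0.935), for *Xcl1* *Il3ra* (0.943), *Ccdc80* (0.936) and *Smim3* (0.875), and for *Cxcl10* *Ptger4* (0.939), *Slamf1* (0.924) and *Nfkb2* (0.914). After group means were removed, r was 0.935 between *Ccl3* and *Cst7* but 0.682 between *Ccl5* and *Cd8b1* and 0.566 between *Cxcl10* and *Nfkb2*. By Spearman's rho *Ccl4* and *Ccl3* were still each other's closest gene (0.986), as was *Ptger4* for *Cxcl10* (0.920), whereas the closest genes of *Ccl5*, *Ccl1* and *Xcl1* were others.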

How the data were processed

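RNA was measured in 20 libraries of sorted splenic donor T cells, 4 per group. Group and replicate number come from the labels, and the number was taken as the animal. Per the methods, poly(A)-selected, strand-specific libraries were read as pairs, aligned to mm10 with STAR and counted on genes. The authors divided the counts by DESeq2 size factors and deposited them as 1 table of normalized signal for 17101 genes. Multiplying by the recovered factors returned whole reads for 100% of the values (tolerance 0.01 reads). Depth was 37547651 to 46966318 reads on genes, and P values of fits without a block measure the spread between animals. Within a genotype, P values with the animal as a block measure the spread of the differences within animals.

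Groups were compared with limma 3.58.1 in R 4.3.3 (eBayes, trend = TRUE), after 1 was added to each normalized count and log2 taken, which understates changes of low genes. Genes needed a mean of 10 or more in the compared libraries. Tests are 2-sided, with P values adjusted by Benjamini-Hochberg over all genes tested, with a threshold of 0.05. Single genes also had 2-sided exact permutation tests, which cannot go below 0.0286 for 4 against 4. Levels per kb used the length of a RefSeq mRNA of GRCm38.p6. Promoter sequences, from RefSeq for GRCm38.p6, were matched by symbol for 4 of the 6 ligands.

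The members, lists, comparisons and naming rule were chosen with earlier results of these data known. Named were the 6 ligands, some of their receptors (1 listed gene is not reported here), from each list up to 3 of the largest rises and falls past the threshold between KO and WT cells, and the 3 genes most alike each ligand. Lists covered receptors, other chemokine ligands, T cell receptor induced genes, granule and effector genes, interferon response genes, transcription factors and markers of other cell types. As alternatives, the pseudocount was set to 10, the filter was dropped or raised to 50, values were quantile normalized or scaled to the 75th percentile, and the trend was omitted. Reads were tested with DESeq2 1.42.0 and with the quasi-likelihood test of edgeR 4.0.16. Between KO and WT cells edgeR called 2265 genes in CD4+ and 3055 in CD8+ cells, where limma called 2274 and 3118. Further fits joined all 20 libraries, took the animal as a replicate block, or left out each library. Added after the data were seen were DESeq2 over all 20 libraries and fits without KO animal 3, with and without the block. Calculations were tested on simulated data.

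Equal numbers were checked by correlating deviations from group means over genes with a mean of at least 50. KO libraries of equal number had r of 0.376 to 0.707, those of different number -0.507 to 0.171. The WT values were 0.224 to 0.311 and -0.182 to 0.018. Equal numbers within a genotype therefore pair libraries. They are called animals here, though the labels do not name the shared unit. KO and WT animals share only the digits 2 and 3.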

Additional observations from a re-analysis of the deposited data

Results flagged for a closer look

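Of the 30 sets of 4 libraries (6 ligands in 5 groups), 1 held a library far from the other 3 by Dixon's criterion, where chance gives about 1 in 20. The *Ccl5* count of 17752 in the KO CD4+ library of animal 1 lay apart from the other KO CD4+ libraries, the highest of which was at 8557. The ratio of its gap to the range was 0.889, above the critical value for 4 samples. The same library had 8287 counts of the 2 CD8 chains. Without it the log2 fold change of *Ccl5* between KO and WT CD4+ cells was -0.17 (adjusted P = 0.518, limma), against 0.13 with it.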

How the results depend on the processing

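In CD4+ cells the number of ligands past the threshold between KO and WT went from 3 to 1 with no filter, quantile normalization, edgeR, DESeq2 (on these or on all 20 libraries) and the joint fit, to 0 without the trend and 0 with the replicate block, and ranged from 0 to 5 when 1 library was left out (0 without KO animal 1 or any WT library, 5 without KO animal 3). In CD8+ cells it went from 2 to 1 with DESeq2 and to 0 with edgeR, the joint fit, DESeq2 on all 20 libraries, no trend and the replicate block, and ranged from 0 to 3 (0 without KO animal 2 or any WT library). KO and WT animals share only numbers, so the block is no paired test there. DP against KO CD8+ cells stayed at 0 with the block alone and went to 4 with the block and without animal 3, and DP against KO CD4+ cells from 1 to 0 without the trend or without animal 3, 3 with DESeq2 on all 20 libraries, 4 with the block and 5 with the block and without animal 3 (0 to 1 with 1 library left out). KO CD8+ against KO CD4+ cells went from 1 to 0 without the trend or animal 3, 2 with DESeq2 (on these or all libraries) and the joint fit, and 6 with the block, with or without animal 3. WT CD8+ against WT CD4+ cells went from 6 to 3 in both fits of all 20 libraries. Over all genes, DESeq2 against limma called 728 against 237 in DP against KO CD4+ cells, 956 against 514 in KO CD8+ against KO CD4+ cells, 3 against 1 in DP against KO CD8+ cells and 21 against 2 for the interaction. The cause of these changes was not tested.

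Some estimates changed sign. Between KO and WT CD8+ cells these were *Ccl5* (-0.15 with quantile normalization), *Ccl1* (0.09 with edgeR and DESeq2, 0.08 with DESeq2 on all libraries), *Cxcl10* (0.13 with the replicate block) and *Ccr3* (-0.39 with the block). In CD4+ cells they were *Ccr3* (0.12, quantile) and *Ccr8* (0.12 with edgeR and DESeq2, 0.11 with DESeq2 on all libraries). With 1 library left out, KO against WT ranged from -0.17 to 0.29 for *Ccl5* and -0.58 to 0.27 for *Ccr8* in CD4+ cells, and from -0.21 to 0.29 for *Ccl5*, -0.10 to 0.43 for *Ccr3* and -1.26 to 0.11 for *Ccr8* in CD8+ cells. DP against KO CD8+ cells ranged from -0.19 to 1.02 for *Ccl3*, -0.22 to 1.11 for *Ccl4*, -0.51 to 0.06 for *Ccl5*, -0.50 to 2.18 for *Xcl1* and -0.07 to 0.52 for *Cxcl10*. *Ccl1* ranged from -1.77 to 0.03 in DP against KO CD4+ cells, and *Ccr3* from -0.45 to 0.02 between the WT subsets. The interaction ranged from -0.86 to 0.31 for *Ccl3*, -0.73 to 0.52 for *Ccl4*, -0.33 to 0.21 for *Ccl5* and -0.45 to 1.28 for *Xcl1*. With neither a block nor a library left out, limma called none of these estimates.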

Other observations

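Related lists were also counted between the subsets. Between WT CD8+ and WT CD4+ cells, 11 of 14 granule and effector genes were higher in CD8+ cells and 2 were lower (median log2 fold change 1.33, against 0.01 over all genes, of which 44.5% were called in either direction). Of 20 T cell receptor induced genes 5 were higher and 14 lower (median -0.68), of 19 interferon response genes 2 were higher and 14 lower (median -0.60), and of 16 transcription factors 4 were higher and 9 lower. In KO cells the same contrast, which called 4.22% of all genes, called 7 granule genes higher and 1 lower, and 4 of 19 interferon genes lower. KO DP cells had 6 of 14 granule genes higher and 3 of 19 interferon genes lower than KO CD4+ cells, where 1.95% of all genes were called, and 0 of either list called against KO CD8+ cells (limma; 1 gene of 12153 was called there in all).

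Summed monocyte and macrophage markers (8 of 8 measured) lay between 1049.7 and 3325 in KO and between 1852 and 3072 in WT libraries, and regulatory T cell markers (3 of 4 measured) between 15639 and 18468 in CD4+ libraries of both genotypes and between 6787 and 10714 in CD8+ and DP libraries. The alpha beta T cell markers (6 of 6) summed to between 138687 and 250882 in all libraries.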
